A study of Mus musculus with 2 samples.

Results

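De novo fatty acid synthesis was followed through 10 genes measured in mammary epithelial cells of Cuzd1-null mice and of heterozygous littermates. The genes were Acly, Me1, Acaca, Thrsp, Fasn, Olah, Scd1, Scd2, Elovl1 and Elovl5. They were taken as every probe set (a group of short array probes read as 1 value) whose single annotated gene symbol was one of these names. The rule found 27 probe sets for the 10 genes, out of 45101 probe sets and 18193 named genes on the array. It used no measured value.

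The animals under study were Cuzd1-null mice, in which both copies of Cuzd1 had been disrupted by homologous recombination in embryonic stem cells. They were set against Cuzd1 heterozygous littermates, which still carry 1 disrupted copy, and the files used here hold no wild-type group. Both were backcrossed to C57BL/6 females and are labelled C57BL/6. The disruption is in the germ line, so every cell type of the animal carries it. Cells were isolated on day 18 of pregnancy from pooled inguinal glands by digestion with hyaluronidase and collagenase, with no sort recorded, and the age of the mice is not given in the labels. RNA of 5 mice was pooled per genotype and hybridised to 1 array each, so the comparison holds 2 arrays and no replicate. Every difference below is therefore a difference between these 2 pools, without a test, and the number of arrays limits the precision.

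Fatty acids are built in the cytosol from citrate that leaves the mitochondria. ATP citrate lyase (Acly) splits the citrate into acetyl-CoA, acetyl-CoA carboxylase (Acaca) turns acetyl-CoA into malonyl-CoA, and fatty acid synthase (Fasn) adds malonyl units to the growing chain with NADPH, part of which malic enzyme (Me1) supplies. In the mammary gland a thioesterase, Olah, releases chains from the synthase early, which gives the medium-chain fatty acids of milk fat. The pathway is induced in the alveolar cells towards the end of pregnancy and in lactation, and adipocytes run it as well.

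Of the 10 genes, 9 had a lower signal in the null pool and 1, Scd2, a higher one. The median log2 ratio of null over heterozygous was -0.31, with a range of -0.79 to 0.18. The brightest probe set by mean signal stands for each gene. A log2 ratio below 0 was found in 46.0% of the 11893 genes measured and in 55.3% of the 1336 genes with a mean signal of at least 1000 intensity units, the class that holds 9 of the 10. A gene was called measured where at least 1 array read above its floor, the array's own median, which was 32.5 units on the null array and 34.2 units on the heterozygous array. The lower signals were uneven along the pathway. Olah and Me1 differed most, Acaca and Fasn came next, and Acly, at its entry, was nearly equal. In a pool of cells, fewer cells of a type and less RNA per cell cannot be told apart.

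The direction of the smaller differences rests on how the arrays are scaled. The deposited signals have the same trimmed mean on both arrays. The 9 hybridization control probe sets, for RNA normally added in equal amounts to every array, had a median log2 ratio of -0.23, and the 12 poly-A control probe sets had a median of -0.26. Scaling to the hybridization controls therefore adds 0.23 to every log2 ratio. On that scale 6 of the 10 genes stayed below 0, against 20.5% of all measured genes, and the median was -0.085. Scaled to the poly-A controls, 5 of the 10 were below 0, against 18.3% of all measured genes. Differences between 2 genes of the list do not depend on such a factor.

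The sequences just before the transcription start are shown for 5 of the genes that span the observed differences: Olah and Me1 with the lowest log2 ratios, Fasn in between, and Thrsp and Acly near or at no difference. They are the 250 bases before the start in the RefSeq table of build GRCm38.p6, printed 5′ to 3′ on the strand of the gene, with matches to the motifs searched in capitals. Olah is on chr2:3366570-3366819, minus strand, Me1 on chr9:86695915-86696164, minus strand, Fasn on chr11:120824548-120824797, minus strand, Thrsp on chr7:97417551-97417800, minus strand, and Acly on chr11:100528001-100528250, minus strand.
Olah: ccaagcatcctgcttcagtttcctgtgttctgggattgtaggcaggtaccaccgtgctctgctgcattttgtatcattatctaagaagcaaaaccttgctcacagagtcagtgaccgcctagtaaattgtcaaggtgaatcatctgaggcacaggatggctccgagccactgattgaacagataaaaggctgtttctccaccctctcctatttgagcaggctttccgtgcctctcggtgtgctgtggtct
Me1: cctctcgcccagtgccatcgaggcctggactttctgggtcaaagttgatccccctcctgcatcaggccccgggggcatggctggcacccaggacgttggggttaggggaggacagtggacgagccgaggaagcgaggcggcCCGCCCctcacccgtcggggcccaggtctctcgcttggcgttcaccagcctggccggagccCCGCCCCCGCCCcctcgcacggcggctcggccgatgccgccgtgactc
Fasn: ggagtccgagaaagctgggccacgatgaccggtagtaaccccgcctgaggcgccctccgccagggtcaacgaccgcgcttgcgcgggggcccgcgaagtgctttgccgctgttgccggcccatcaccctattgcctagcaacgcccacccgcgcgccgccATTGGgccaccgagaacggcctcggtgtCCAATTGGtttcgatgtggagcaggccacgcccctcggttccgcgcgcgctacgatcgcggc
Thrsp: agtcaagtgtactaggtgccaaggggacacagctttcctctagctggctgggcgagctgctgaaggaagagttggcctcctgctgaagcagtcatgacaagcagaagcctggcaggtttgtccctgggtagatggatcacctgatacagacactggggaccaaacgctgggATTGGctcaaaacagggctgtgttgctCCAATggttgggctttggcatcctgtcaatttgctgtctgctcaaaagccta
Acly: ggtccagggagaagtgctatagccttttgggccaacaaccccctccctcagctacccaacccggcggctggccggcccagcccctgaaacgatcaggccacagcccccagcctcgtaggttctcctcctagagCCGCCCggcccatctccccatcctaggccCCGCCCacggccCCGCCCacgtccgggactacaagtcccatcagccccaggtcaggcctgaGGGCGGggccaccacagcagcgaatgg

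The motifs were sought on both strands: the sterol response element as TCACNCCAC, the E-box as CACGTG, the NF-Y box as CCAAT, the GC box as GGGCGG and the STAT site as TTCNNNGAA. The table matched 8 of the 10 genes with 10 windows, 2 each for Me1 and Elovl1, and Scd1 and Scd2 have no entry. The window of Acaca, which has several start sites, may not be the one used in these cells. It is counted but not printed. NF-Y boxes were present in 5 of the 10 windows and in 33.8% of all 32851 windows. In Fasn they begin 90, 62 and 59 bases before the start, the last 2 overlapping in 1 run of opposite strands, and in Thrsp 79 and 52 bases before it. GC boxes were present in 4 of the 10, among them Acly with 4 and Me1 with 3 in the window shown, and in 32.7% of all windows. Elovl5 held 1 E-box, 161 bases before its start, a motif of 6.02% of windows. No window of these genes held the sterol response element or the STAT site as written, which 1.05% and 7.02% of all windows did. The window of Olah held none of the 5 motifs. Whether any of these motifs bears on the log2 ratios was not tested.

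**Figure D1:**
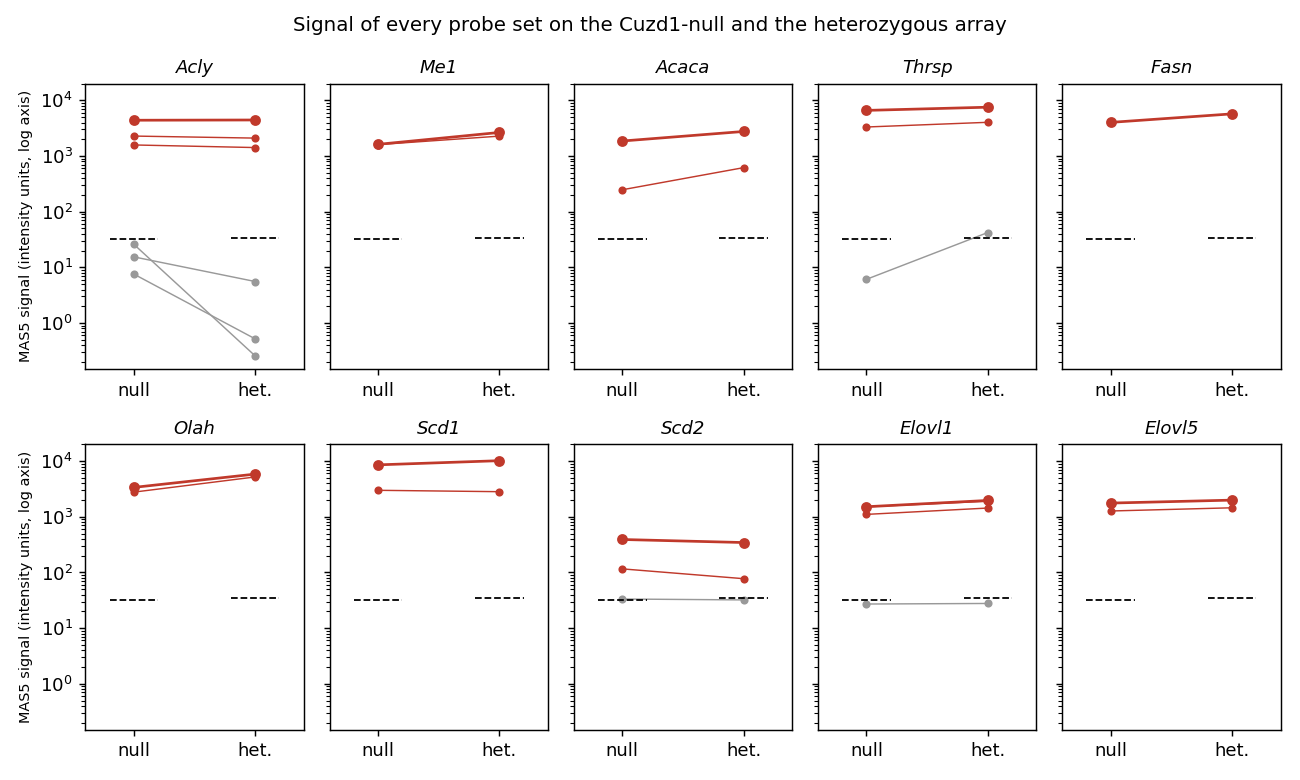
MAS5 signal (intensity units, log axis) of all 27 probe sets on the null array (left in each panel) and the heterozygous array (right), 1 line per probe set and 1 panel per gene. Thick lines mark the brightest probe set, grey lines the 6 probe sets not above both floors, and dashed marks the floors. The lines slope up towards the heterozygous array for Me1, Acaca, Fasn and Olah and are nearly flat for Acly.

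Carbon enters the pathway through Acly, whose signal was 4401 units in the null pool and 4446 units in the heterozygous pool at its brightest probe set. The log2 ratio was -0.015. Its 2 other probe sets above both floors read 2286 and 1583 units in the null pool, against 2101 and 1421 units in the heterozygous pool, log2 ratios of 0.12 and 0.16. Acly was thus equal within 1.11-fold at all 3 of these probe sets. The remaining 3 lay below the floor on both arrays and give no ratio. Its log2 ratio was 0.21 on the hybridization-control scale.

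Me1 makes NADPH for the synthase while turning malate into pyruvate. It read 1624 units in the null pool and 2655 units in the heterozygous pool, 1.64-fold lower in the null pool with a log2 ratio of -0.71. Its second probe set read 1606 units in the null pool and 2280 units in the heterozygous pool, a log2 ratio of -0.51. Both probe sets were lower in the null pool, on the deposited and on the hybridization-control scale, where the brighter one had -0.48. Of the 1336 bright genes, 35 had a ratio as low as that of Me1.

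Acaca, the carboxylase of the committed step, read 1863 units in the null pool and 2765 units in the heterozygous pool. It was 1.48-fold lower in the null pool, with a log2 ratio of -0.57. A dimmer probe set of the same gene read 248 units in the null pool and 619 units in the heterozygous pool, a log2 ratio of -1.32 and 2.50-fold lower. The 2 probe sets point the same way and differ by 0.75 on the log2 scale, the widest gap within a gene of the list. What separates them, such as the transcript each one reads, is not recorded here.

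Thrsp (Spot 14), a small protein tied to the lipogenic rate in mammary gland and liver, read 6610 units in the null pool and 7546 units in the heterozygous pool, a log2 ratio of -0.19. A second probe set read 3326 units in the null pool and 4039 units in the heterozygous pool (-0.28). The remaining probe set was below the floor in the null pool, at 6.10 units, and just above it in the heterozygous pool, at 42.3 units, at least 1.30-fold lower. All 3 were lower in the null pool as deposited. On the hybridization-control scale the log2 ratio of the brightest one was 0.036.

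Fasn carries out the chain-building cycle itself. Its only probe set read 4025 units in the null pool and 5725 units in the heterozygous pool, 1.42-fold lower with a log2 ratio of -0.51. There is no second probe set to set beside it. On the hybridization-control scale the log2 ratio was -0.28.

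Olah, which ends the chains at medium length, had the lowest log2 ratio of the list. Its brightest probe set read 3377 units in the null pool and 5853 units in the heterozygous pool, 1.73-fold lower with a log2 ratio of -0.79. The other read 2776 units in the null pool and 5201 units in the heterozygous pool, 1.87-fold lower with -0.91. Both probe sets stayed lower on the hybridization-control scale, where the brightest had -0.57. Of the 1336 bright genes, 25 (1.87%) had a ratio as low. The log2 ratio of Olah was 0.28 below that of Fasn, 0.54 below that of Scd1 and 0.78 below that of Acly, differences that no scaling factor alters.

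Desaturases put a double bond into the finished chain. Scd1, the main stearoyl-CoA desaturase of the gland and of fat, read 8578 units in the null pool and 10192 units in the heterozygous pool, a log2 ratio of -0.25. Its second probe set read 2992 units in the null pool and 2826 units in the heterozygous pool (0.082), so its probe sets lie on both sides of 0. Scd2, an isoform prominent in brain, read 391 units in the null pool and 345 units in the heterozygous pool, a log2 ratio of 0.18. At a dimmer probe set it read 116 units in the null pool and 77.4 units in the heterozygous pool, 1.50-fold higher (0.59). The last one read 33.4 units in the null pool and 32.1 units in the heterozygous pool, at or near the floor on both. Scd1 lay 0.43 below Scd2 on the log2 scale. The desaturase genes are similar in sequence, so a probe set may also bind a relative's transcript.

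The elongases, enzymes that lengthen fatty acids at the endoplasmic reticulum, were both slightly lower in the null pool as deposited. Elovl1, which acts on very long saturated chains, read 1517 units in the null pool and 1968 units in the heterozygous pool, a log2 ratio of -0.38. The 2 other probe sets above both floors had -0.33 and -0.38, and a last one lay below the floor on both arrays. Elovl5, which acts on polyunsaturated chains, read 1764 units in the null pool and 1994 units in the heterozygous pool (-0.18), with -0.19 at its second probe set. After scaling to the hybridization controls Elovl1 stayed below 0 at -0.15 while Elovl5 was at 0.051.

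**Figure D2:**
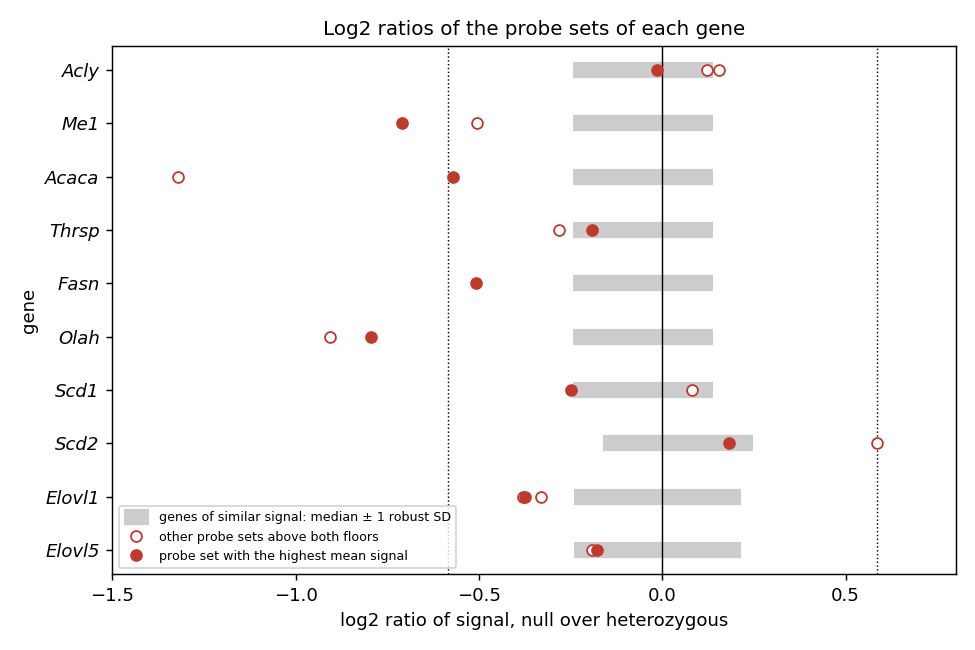
Log2 ratio of signal, null over heterozygous (horizontal axis), for the 21 probe sets above both floors, by gene in pathway order. Filled points are the brightest probe set of a gene, open points the others, and grey bars the median ± 1 robust SD among genes of similar signal. Dotted lines mark 1.5-fold. Olah, Me1, Acaca, Fasn and Elovl1 lie to the left of their grey bars at every probe set, while Acly and Elovl5 have points within theirs.

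With no replicate array, the spread among other genes is the closest yardstick at hand. It mixes noise with real differences and cannot stand in for replicate error. When all measured genes were sorted by signal into 20 bins, the robust SD of the log2 ratios, taken from the median absolute deviation, was 0.19 to 0.23 in the bins of these 10 genes. By this measure 6 of the 10 genes lay more than 1 robust SD below the median of their bin, against 17.8% of all measured genes, and 0 lay more than 1 above it, against 14.7%. The 6 were Olah, Me1, Acaca, Fasn, Elovl1 and Scd1. Scd1 was only just outside, 0.20 below its bin against an SD of 0.19. A probe set's own robust SD, from 4722 genes measured by a pair of probe sets, was 0.21.

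Counted by size, 2 of the 10 genes (Olah and Me1) were lower in the null pool by 1.5-fold or more, against 4.93% of all measured genes and 3.37% of the bright ones. None of the 10 was at least 1.5-fold higher (5.83% of all measured genes), and none was at least 2-fold apart in either direction (2.15%). Acaca and Fasn lay just inside the 1.5-fold line. On the hybridization-control scale 0 of the 10 reached 1.5-fold lower at their brightest probe sets, against 2.09% of all measured genes. The dimmer probe sets of Acaca (-1.32 as deposited) and Olah (-0.91 as deposited) were still past 1.5-fold lower on that scale. Among the 21 probe sets above both floors, 16 were lower in the null pool as deposited, against 47.3% of 18391 such probe sets of named genes. At least 1.5-fold lower were 4 of them (5.20%), and 1 of these, of Acaca, was at least 2-fold lower (0.995%). At least 1.5-fold higher was 1, of Scd2 (5.15%). Of the other 6 probe sets, 2 were above 1 floor and 4 below both.

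**Figure D3:**
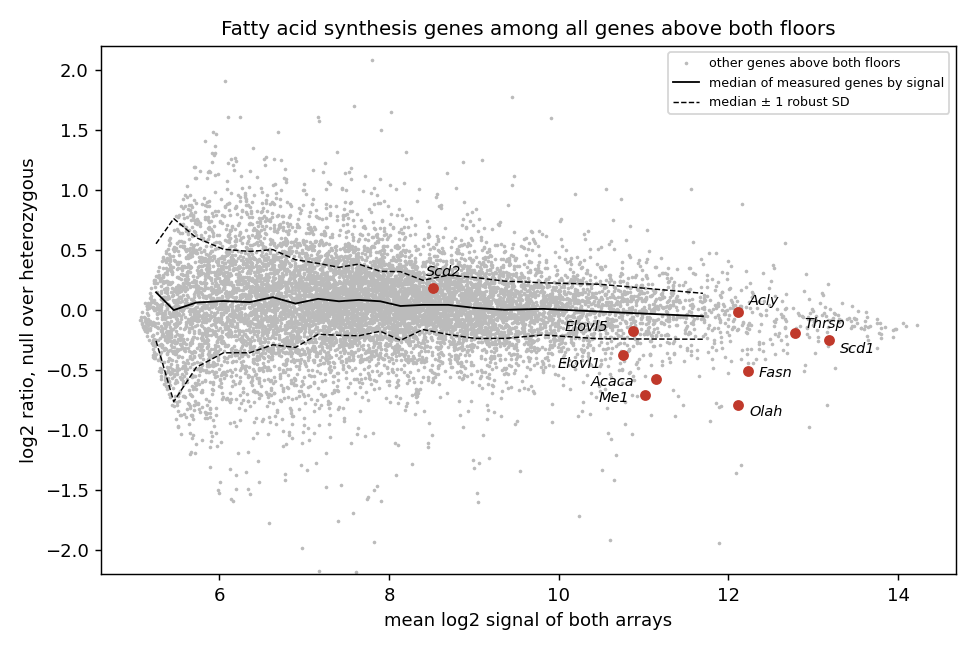
Log2 ratio, null over heterozygous, against the mean log2 signal of both arrays for the genes above both floors (grey; genes beyond ±2.2 are not drawn), with the 10 fatty acid synthesis genes in red. Lines give the median and median ± 1 robust SD of measured genes by signal. Scd2 is the dimmest of the 10 and lies above the median line; Olah and Me1 lie lowest.

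The 5 genes with the lowest log2 ratios kept their order under each scaling drawn, while the order of Scd1, Thrsp and Elovl5 changed between scalings. From the lowest upwards the 5 ran Olah, Me1, Acaca, Fasn and Elovl1 in the deposited values, with quantile normalization (-0.73, -0.69, -0.55, -0.43 and -0.36) and after each gene was set against genes of similar signal (-0.74, -0.66, -0.52, -0.46 and -0.36). These 5 genes stayed below 0 under each scaling drawn. Acly, Thrsp, Elovl5 and Scd1 crossed 0 under at least 1 of them, and Scd2 stayed above 0. When a gene was represented by the median over its measured probe sets, Acaca had the lowest ratio, at -0.94.

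**Figure D4:**
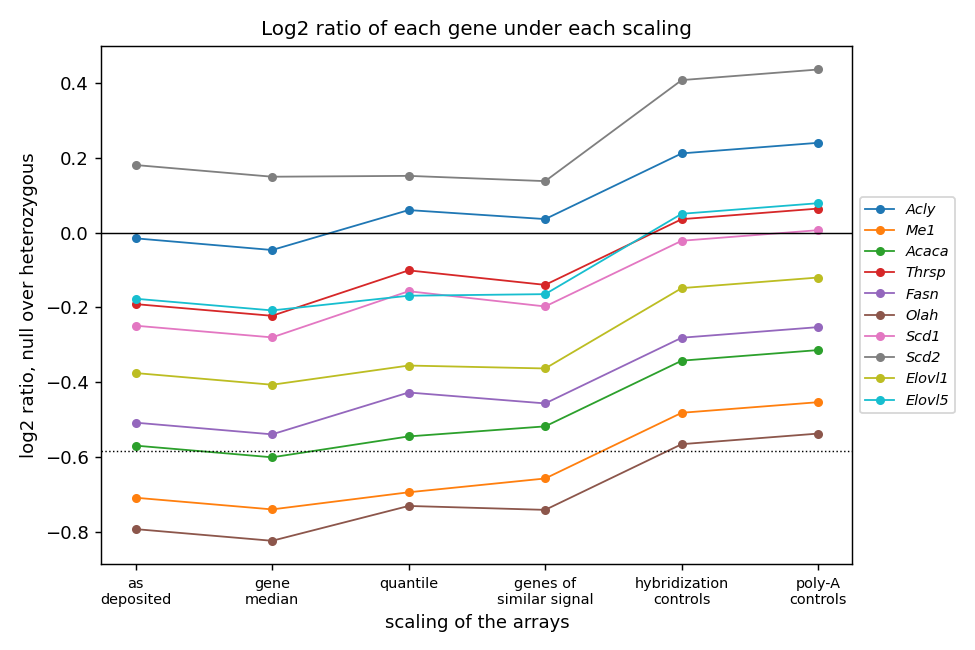
Log2 ratio, null over heterozygous, of each of the 10 genes (lines) as deposited and under 5 other scalings of the arrays (horizontal axis); the dotted line marks 1.5-fold lower. The control-based scalings shift all genes upwards by 0.23 or 0.26; Olah, Me1, Acaca, Fasn and Elovl1 remain below 0 and Scd2 above 0 in all 6.

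The genes that supply acetyl-CoA and citrate were on the whole lower as well. Of 12 measured members of this list, 10 were lower in the null pool, against 46.0% of all measured genes. None reached 1.5-fold, while 4.93% of all measured genes were at least that much lower. The median log2 ratio was -0.23 and became 0.0021 on the hybridization-control scale. The median over all measured genes was 0.028. The brightest members were Pdha1, a subunit of pyruvate dehydrogenase (4400 units in the null pool, 4792 units in the heterozygous pool, -0.12), and Mdh1, the cytosolic malate dehydrogenase that makes the substrate of malic enzyme (3237 units in the null pool, 3997 units in the heterozygous pool, -0.30). Named after their values were seen, Slc25a1, the carrier that exports citrate from mitochondria, read 373 units in the null pool and 534 units in the heterozygous pool (-0.52), and Pcx, pyruvate carboxylase, 977 units in the null pool and 1352 units in the heterozygous pool (-0.47). The array also has 4 control probe sets labelled for mouse pyruvate carboxylase, and these had log2 ratios of -0.46 to -0.69. Acss2, which makes acetyl-CoA from acetate, was at 0.018, with -0.33 at its other probe set.

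The other measured genes of NADPH supply, Me2 included, were mostly not lower. G6pdx, a pentose phosphate enzyme on the same list, had no probe set under its name and was not covered. Of 12 measured, 3 were lower in the null pool, against 46.0% of all measured genes, and 9 were higher, none by 1.5-fold. H6pd, among the 3 lower, was above the floor in the heterozygous pool alone and counted as measured through it. The median log2 ratio was 0.074 as deposited, against 0.028 over all measured genes, and 0.30 on the hybridization-control scale. The brightest were the pentose phosphate enzymes Tkt (6322 units in the null pool, 6527 units in the heterozygous pool, -0.046) and Taldo1 (3806 units in the null pool, 3719 units in the heterozygous pool, 0.033). Pgd, which yields NADPH directly, read 1704 units in the null pool and 1389 units in the heterozygous pool (0.30) and was named after its values were seen. Me2, a mitochondrial relative of Me1, was dim at 58.2 units in the null pool and 42.4 units in the heterozygous pool, and its log2 ratio of 0.46 was the highest of the 12. Me3 was below the floor on both arrays.

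The list drawn up for control of the carboxylase was mixed. In it 9 of 16 genes were lower, against 46.0% of all measured genes, with a median of -0.039. At least 1.5-fold lower were 2 of the 16, against 4.93% of all measured genes. Mid1, a ubiquitin ligase whose own action on the carboxylase is not shown here, was 2.26-fold lower. It read only 33.8 units in the null pool and 76.5 units in the heterozygous pool, close to the floor. Mid1ip1, on the same list, read 192 units in the null pool and 251 units in the heterozygous pool (-0.39). Acacb, the mitochondrial isoform of the carboxylase, whose product restrains fatty acid oxidation, read 118 units in the null pool and 193 units in the heterozygous pool, 1.63-fold lower. The AMP-activated kinase subunits, which inhibit the carboxylase when energy is low, lay on both sides of 0. Their log2 ratios were -0.27 for Prkab2, -0.23 for Prkaa2, -0.051 for Prkag2, -0.027 for Prkab1 and 0.025 for Prkag1. Prkaa1, the other catalytic subunit, was above the floor in the null pool alone, at 45.1 units against 23.1 units in the heterozygous pool, at least 1.32-fold higher. Mid1ip1 and the 6 subunits were named after their values were seen.

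Of the remaining elongation and desaturation genes, 10 of 18 measured were lower, against 46.0% of all measured genes, with a median of -0.12. Fads6, among the higher ones, was above the floor in the null pool alone and counted as measured through it. At least 1.5-fold lower were 3 of the 18, against 4.93% of all measured genes. Scd3, another desaturase, read 61.3 units in the null pool and 98.6 units in the heterozygous pool (1.61-fold lower). Hacd1, a dehydratase of the elongation cycle, read 895 units in the null pool and 1413 units in the heterozygous pool, 1.58-fold lower, with -0.53 at its other probe set. Elovl6, which lengthens palmitate, read 254 units in the null pool and 385 units in the heterozygous pool, 1.52-fold lower, with -0.43 at its other probe set. The 2 brighter genes of these had both probe sets lower. Elovl7, named after its values were seen, counted as higher at its brightest probe set (0.15). Its 4 other probe sets above both floors were lower, at -0.42 to -0.91. On the hybridization-control scale the median of this list was 0.11.

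Acyl-CoA activation and carriage, the step that follows synthesis, had 8 of 13 measured genes lower, against 46.0% of all measured genes. Of these 0 were lower by 1.5-fold (4.93% of all measured genes), and the median was -0.084. Acsl6, among the higher ones, was above the floor in the null pool alone and counted as measured through it. Fabp3, the fatty acid binding protein of the lactating gland, read 12418 units in the null pool and 15440 units in the heterozygous pool (-0.31), although its dim second probe set had -1.38. Dbi, the acyl-CoA binding protein, read 8042 units in the null pool and 8503 units in the heterozygous pool (-0.080). Genes of the separate mitochondrial fatty acid synthesis pathway, which makes the lipoate precursor, were higher for 8 of 9. Lower was 1 of the 9, against 46.0% of all measured genes. Their median was 0.12 and none was 1.5-fold apart. Its brightest members were Ndufab1, the mitochondrial acyl carrier protein (0.0089), and Lias, lipoate synthase (0.17). The cytosolic and mitochondrial pathways had medians of -0.31 and 0.12 as deposited, and of -0.085 and 0.35 on the hybridization-control scale. Set against genes of similar signal, the medians were -0.28 and 0.045, so the mitochondrial list lay close to such genes.

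Transcriptional control of lipogenesis runs through SREBP1, encoded by Srebf1. Srebf1 read 1609 units in the null pool and 1640 units in the heterozygous pool, a log2 ratio of -0.028, and Srebf2 had 0.013. Their escort Scap had -0.23. The list of 19 measured genes had 12 lower, against 46.0% of all measured genes, and a median of -0.14. In it 1 gene was past 1.5-fold lower, against 4.93% of all measured genes. It was Insig1, an SREBP target that retains SREBP in the endoplasmic reticulum (91.6 units in the null pool, 254 units in the heterozygous pool). Mlxipl, which encodes the carbohydrate response factor ChREBP, was below the floor on both arrays. On the hybridization-control scale the medians of the lists for carboxylase control, acyl-CoA carriage and lipogenic transcription were above 0, at 0.19, 0.14 and 0.090. Srebf1, Srebf2, Scap and Mlxipl were named after their values were seen.

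**Figure D5:**
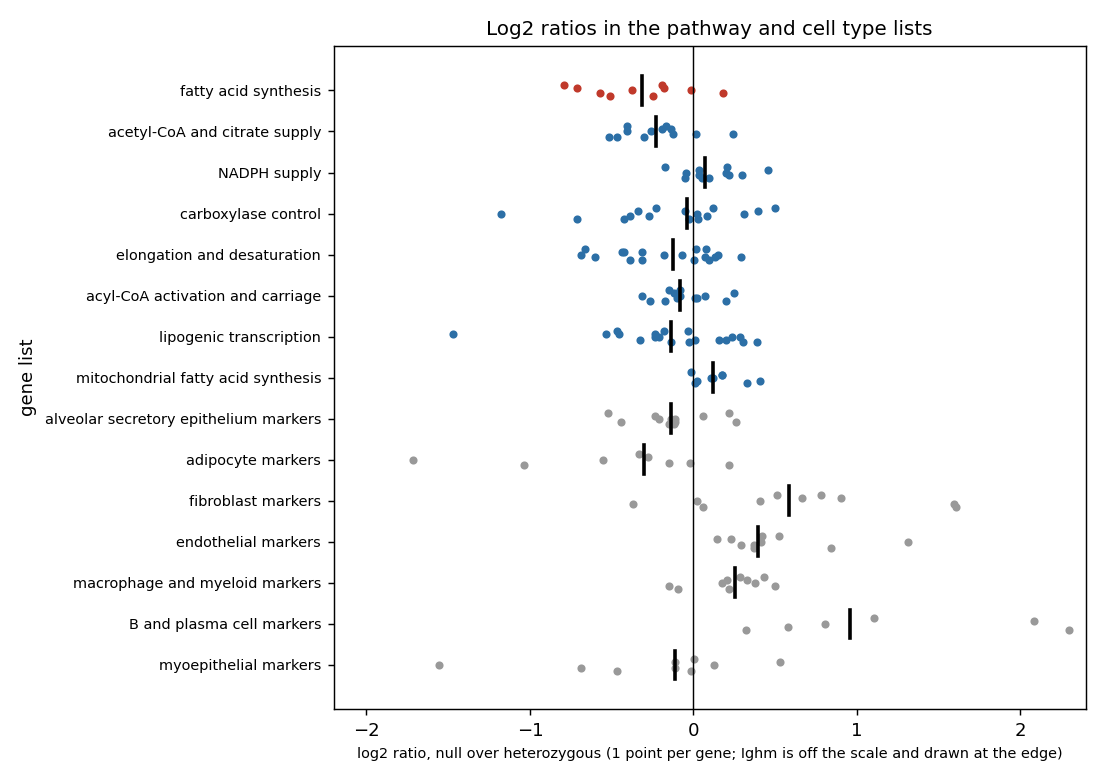
Log2 ratio, null over heterozygous (horizontal axis), of each measured gene (points) in the 10 fatty acid synthesis genes (red), the other pathway lists (blue) and the cell type marker lists (grey), with the list median as a bar. The fatty acid synthesis genes and the adipocyte markers have medians of -0.31 and -0.30, the second of which depends on the floor; fibroblast, endothelial, myeloid and B cell markers have medians above 0. All points are as deposited and would move up by 0.23 on the hybridization-control scale.

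Markers of the cell types in the preparation moved too. For comparison with the counts below, 46.0% of all measured genes were lower in the null pool and 4.93% were at least 1.5-fold lower. The markers listed for secretory alveolar epithelium were bright on both arrays, whose labels name mammary epithelial cells only. Summed over 13 markers they came to 124912 units in the null pool and 135393 units in the heterozygous pool. Of these 13 markers 10 were lower, against 55.3% of the bright genes, 0 of them at least 1.5-fold, with a median of -0.13. The lowest were Lalba, the regulatory subunit of lactose synthase (-0.52), and Xdh, a protein of the milk fat globule (-0.44). The keratins Krt8 (0.059) and Krt18 (0.22) and the adhesion gene Epcam (0.26) were higher, though the other probe set of Epcam was lower (-0.22). Adipocyte markers were lower for 7 of 8 measured, 2 of them at least 1.5-fold, with a median of -0.30. Their sum over 11 genes was 7580 units in the null pool and 9799 units in the heterozygous pool. Most of this sum is Fabp4, at 6169 units in the null pool and 6829 units in the heterozygous pool (-0.15), and Lipe was higher (0.22). Adipoq, which only fat cells make in quantity, was dim: 29.2 units in the null pool, below the floor, and 66.6 units in the heterozygous pool. Lep was likewise above the floor in the heterozygous pool alone, so both counted as measured through that pool. Cidec, Pck1 and Ucp1 were below the floor on both arrays. The bright Cidea (665 units in the null pool, 2188 units in the heterozygous pool, 3.29-fold lower) is also made by secretory alveolar cells and holds most of the difference between the sums. The adipocyte median depended on the floor, at -0.44 with no floor and -0.084 with the floor at the 75th percentile. That of the fatty acid synthesis genes, -0.31, could not move with the floor, because their brightest probe sets lie above it. Fibroblast markers were higher for 9 of 10 (sums of 13926 units in the null pool and 10836 units in the heterozygous pool), and endothelial markers for 10 of 10 (3088 units in the null pool, 2224 units in the heterozygous pool). Macrophage and myeloid markers were higher for 8 of 10 (14085 units in the null pool, 12172 units in the heterozygous pool). B and plasma cell markers were higher for 6 of 6 measured (2975 units in the null pool, 418 units in the heterozygous pool over 7 genes). At least 1.5-fold higher were 5 of 10 fibroblast, 2 of 10 endothelial, 0 of 10 myeloid and 4 of 6 B and plasma cell markers. The share over all measured genes was 5.83%. Among these markers Itgam, Mrc1, Cd79a, Ms4a1 and Mzb1 were above the floor in the null pool alone and counted as measured through it. Ighm, at 2252 units in the null pool and 172 units in the heterozygous pool, holds most of the difference between the B and plasma cell sums. Myoepithelial markers were lower for 6 of 9, with sums of 20714 units in the null pool and 22695 units in the heterozygous pool. At least 1.5-fold lower were 2 of the 9, Krt14 (-0.69) and Krt17 (-1.55). Scaled to the hybridization controls, the median was above 0 for alveolar (0.094) and myoepithelial markers (0.12) and stayed below 0 for adipocyte markers (-0.077). The part of these shifts in the lower signals of the fatty acid synthesis genes was not tested.

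The single probe set of Cuzd1 read 33.98 units in the null pool and 32.4 units in the heterozygous pool, about the floor on both, so it does not check the genotype labels. The genes most like 2 of the 10 were sought by distance in the plane of the 2 arrays' log2 signals, among 10609 genes above both floors. Nearest to Scd1, the brightest, were Mt1, Rps15 and Cd24a, at distances of 0.037, 0.037 and 0.058 on the log2 scale. Nearest to Olah were Lalba (0.25), Fasn (0.26) and Eif5 (0.27). Likeness over 2 arrays is weak, and the brightness of different probe sets does not compare amounts of RNA.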

How the data were processed

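Per the submitters' processing notes, the authors used MAS5 in Affymetrix Expression Console 1, and they deposited a signal intensity on a linear scale for every probe set. No genome build is recorded in the sources used here. Trimmed means (2% off each end) were 150.0 units on both arrays, so the arrays were scaled to a common target. Whether any further normalization was applied is not known. Scanner files and detection calls were not analysed here.

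The platform's probe table gave gene symbols (34958 probe sets with 1 symbol, 932 with several, which name no gene). Entrez IDs matched 34754 of them to current RefSeq symbols. Each of the 45037 non-control probe sets was floored at its array's median before the log2 ratio, and the brightest probe set by mean signal stood for a gene. There is 1 array per genotype, so nothing was tested. Calculations used numpy 2.4.6 and pandas 2.3.3 and were checked on simulated data.

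The genes, the lists and the scalings were chosen with earlier results of these data known. The text names all 10 genes with every probe set. Each other pathway list contributes up to 4 genes with the largest ratios past 1.5-fold, or its 2 brightest where no gene passed. For the brightest gene and the one with the largest ratio, the 3 nearest genes are named too. Other names were chosen after their values were seen, markers included. The alternatives tried were other floors, scalings and ways to represent a gene.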

Additional observations from a re-analysis of the deposited data

How the results depend on the processing

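Across 11 alternatives for the floor, the scaling and the representation of a gene, the median log2 ratio of the 10 fatty acid synthesis genes stayed below 0, between -0.34 and -0.056. It was -0.085 scaled to the hybridization controls and -0.056 scaled to the poly-A controls. The number of genes lower in the null pool was 9 in the deposited values, 6 scaled to the hybridization controls and 5 scaled to the poly-A controls, and 8 or 9 otherwise. The number at least 1.5-fold lower was 2 as deposited, 0 under both control-based scalings and 2 or 3 under the others, and 0 genes were 2-fold apart under any. Both control-based scalings raise all log2 ratios by a constant, which accounts for these shifts by construction. Of 110 pairs of a gene and an alternative, 89 moved by less than the robust SD between probe sets of a gene (0.21), 21 moved by more, and 0 genes past 1.5-fold changed sign. Of these 21, 20 were under the control-based scalings and 1 was Acaca with the median over its probe sets. Most of these 110 outcomes were fixed in advance. Changing the floor, or keeping only genes above both floors, could not move the 10 genes. Their brightest probe sets lie above every floor tried. Scaling to the gene median moves every log2 ratio by a constant 0.031. The constants of the control-based scalings, 0.23 and 0.26, exceed 0.21 for every gene. The count of 89 therefore does not measure how stable the log2 ratios are. No paired analysis was possible because there is 1 array per genotype. Precision is limited by the number of arrays, and depth does not apply.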
